A study of Mus musculus with 3 samples.

Results

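The MHC class II presentation genes were followed in the hippocampus of adult male mice, as 7 genes named by symbol: H2-Aa, H2-Ab1, H2-Eb1, H2-DMa, H2-DMb1, Cd74 and Ciita. Their members were the array probes carrying 1 of these names, which were 9 of 39429 probes. Of these 9, 8 were bright enough to be tested, so the 7 genes stood among 17964 tested genes and 27630 tested probes. The sons of older mothers (advanced maternal age, AMA) came from females aged 15 to 18 months at breeding, and the sons of young mothers (YMA, the control) from females aged 3 months. Fathers were 3 months old and virgin in both groups, and all sons were killed on postnatal day 120. The strain is not given in the labels. Each RNA sample was a pool of hippocampal RNA from 3 males, and 3 two-colour arrays each carried 1 AMA pool in Cy3 and 1 YMA pool in Cy5. The dye therefore cannot be told apart from the group. Whether pools share litters is not stated. The p-values rest on the spread of the 3 array ratios, moderated over all tested probes, and not on the spread of pools within a group.

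MHC class II molecules carry peptides from endosomes to the cell surface, where CD4+ T cells read them. An alpha and a beta chain form the peptide-binding molecule, the invariant chain Cd74 holds it until it reaches the endosome, and the DM chains then exchange the remaining Cd74 fragment for a peptide. Ciita is the transactivator that switches on the promoters of these genes, which share the S, X and Y boxes bound by RFX, CREB and NF-Y factors. In the brain, class II is known from macrophages at the borders, dendritic cells and activated microglia. In these pooled tissue samples, fewer cells of a type and less RNA per cell cannot be told apart.

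In AMA hippocampus 5 of the 7 genes were lower than in YMA hippocampus (Cd74, H2-Ab1, H2-DMb1, H2-Aa and H2-DMa), by log2 ratios from -1.19 to -0.35. Ciita was higher by 0.31 on the log2 scale, and H2-Eb1 did not pass the test. A gene was called when limma's adjusted p over all tested probes was under 0.05, and 12.2% of 17964 tested genes were called lower in AMA and 7.34% higher. The median log2 ratio of the chains and Cd74 was -0.64, against -0.028 over all genes, with 1 probe per gene. The call of Ciita rests on a probe of unusual sequence and ended when probe composition was taken into account, as given below.

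The probe sequences that bear on these values are shown first, 5′ to 3′ with positions on mm9, the build named in the array file headers. The pair of H2-Ab1 probes is shown because they overlap by 51 bases on the plus strand (chr17:34406296-34406355 and chr17:34406305-34406363) and differ at 1 shared base. Counted from 1 at the 5′ end of the first probe, the difference is T51C, and the capital marks it in these 30 bases of each:
H2-Ab1 first probe: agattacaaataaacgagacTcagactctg
H2-Ab1 second probe: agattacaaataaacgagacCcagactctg
These probes read nearly the same stretch and are not independent measurements of H2-Ab1. The Ciita probe had an unusual composition, with 65% A over its 60 bases, against a median of 28.3% over all probes. It held 23 different 5-base words of 56 possible, against a median of 54, and 80 probes of the array held as few. The H2-Aa probe is shown whole as a member probe of ordinary composition, with 31.7% A (chr17:34421285-34421344, minus strand):
H2-Aa probe: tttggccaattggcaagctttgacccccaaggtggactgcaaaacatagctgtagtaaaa
The probes of H2-Eb1 and H2-DMb1 lie at chr17:34453075-34453134 and chr17:34297109-34297168, and that of H2-DMa at chr17:34274300-34274863, where its 60 bases span 564 genomic bases. Whether each probe lies in coding or untranslated sequence was not determined here.

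The values below are of 2 kinds. A level is the channel intensity of a probe in 1 pool after dye normalisation and scaling between arrays, in arbitrary units that hold only within a probe. A log2 ratio is AMA over YMA on 1 array, with the error of a mean given as the SD over the 3 arrays.

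Cd74, the invariant chain, had levels of 464, 329 and 419 in AMA pools 1, 2 and 3, against 1687, 634 and 705 in YMA pools 1, 2 and 3. All 3 AMA pools lay below all 3 YMA pools, and YMA pool 1 stood apart at 2.52 times the mean of the other YMA pools. The log2 ratios were -1.86, -0.95 and -0.75 on arrays 1, 2 and 3, with a mean of -1.19 ± 0.59 (SD, n = 3) and an adjusted p of 0.0259. The mean corresponded to 0.439 times the YMA level. Without array 1 the mean was -0.85 and the call held. The call was lost without array 3 (adjusted p 0.0554), with Agilent's processed signals (0.0546) and with a variance trend and robust settings (0.0941).

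H2-Ab1, the beta chain of the I-A molecule, had levels of 518, 350 and 403 in AMA pools, against 1333, 641 and 703 in YMA pools, on its brighter probe. The groups did not overlap, and YMA pool 1 was again the high one, at 1.99 times the mean of the other YMA pools. The log2 ratio was -1.01 ± 0.31 (SD, n = 3), with an adjusted p of 0.0152, the lowest among the 7 genes. The other probe, the first of the pair shown above, gave -1.05 ± 0.34 and an adjusted p of 0.0160.

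H2-Aa encodes the alpha chain that pairs with H2-Ab1. Its levels were 136, 119 and 123 in AMA pools, against 242, 157 and 173 in YMA pools, with no overlap and the highest value in YMA pool 1. The log2 ratios were -0.83, -0.40 and -0.49, with a mean of -0.57 ± 0.23 and an adjusted p of 0.0210. On each array the H2-Aa ratio was less negative than that of its partner, with H2-Ab1 minus H2-Aa at -0.53, -0.47 and -0.32. The offset added to each signal pulls the ratios of dim probes towards 0. With Agilent's processed signals, which carry no such offset, the ratios were -1.09 for H2-Aa and -1.27 for H2-Ab1, and both stayed called. Without background correction the ratios were -0.57 for H2-Aa and -1.03 for H2-Ab1, and under median centring -0.53 and -1.46. The cause of the difference between these partners was not tested.

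H2-Eb1, the beta chain of the I-E molecule, varied in sign across arrays. Its levels were 156, 139 and 209 in AMA pools, against 181, 152 and 141 in YMA pools. The groups overlapped, with the highest level of all in AMA pool 3. The log2 ratios were -0.21, -0.13 and 0.57, with a mean of 0.077 ± 0.43 and an adjusted p of 0.744. Array 3 decided the sign, which was negative without it, at -0.17. The 3 arrays do not show whether H2-Eb1 differs from the chains that were called, and that difference was not tested.

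H2-DMb1, the beta chain of the peptide exchanger, had levels of 191, 154 and 158 in AMA pools, against 390, 225 and 233 in YMA pools. The groups did not overlap, and YMA pool 1 was the highest. The log2 ratio was -0.71 ± 0.28 with an adjusted p of 0.0195, and -1.28 with Agilent's processed signals. A second probe named H2-DMb1 was not well above background in any pool and was not tested. H2-DMa, the alpha chain that pairs with H2-DMb1, had levels of 466, 490 and 428 in AMA pools, against 563, 599 and 596 in YMA pools. Its groups did not overlap either, but its YMA pools lay close together and pool 1 was the lowest of them. The log2 ratios of H2-DMa were -0.27, -0.29 and -0.48, with a mean of -0.35 ± 0.11 and an adjusted p of 0.0230. With Agilent's processed signals H2-DMa was at -0.38 and lost its call (adjusted p 0.0725). The difference H2-DMb1 minus H2-DMa was -0.76, -0.26 and -0.080 on arrays 1, 2 and 3, so the ratios of these partners lay apart on array 1 and close on array 3.

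**Figure D1:**
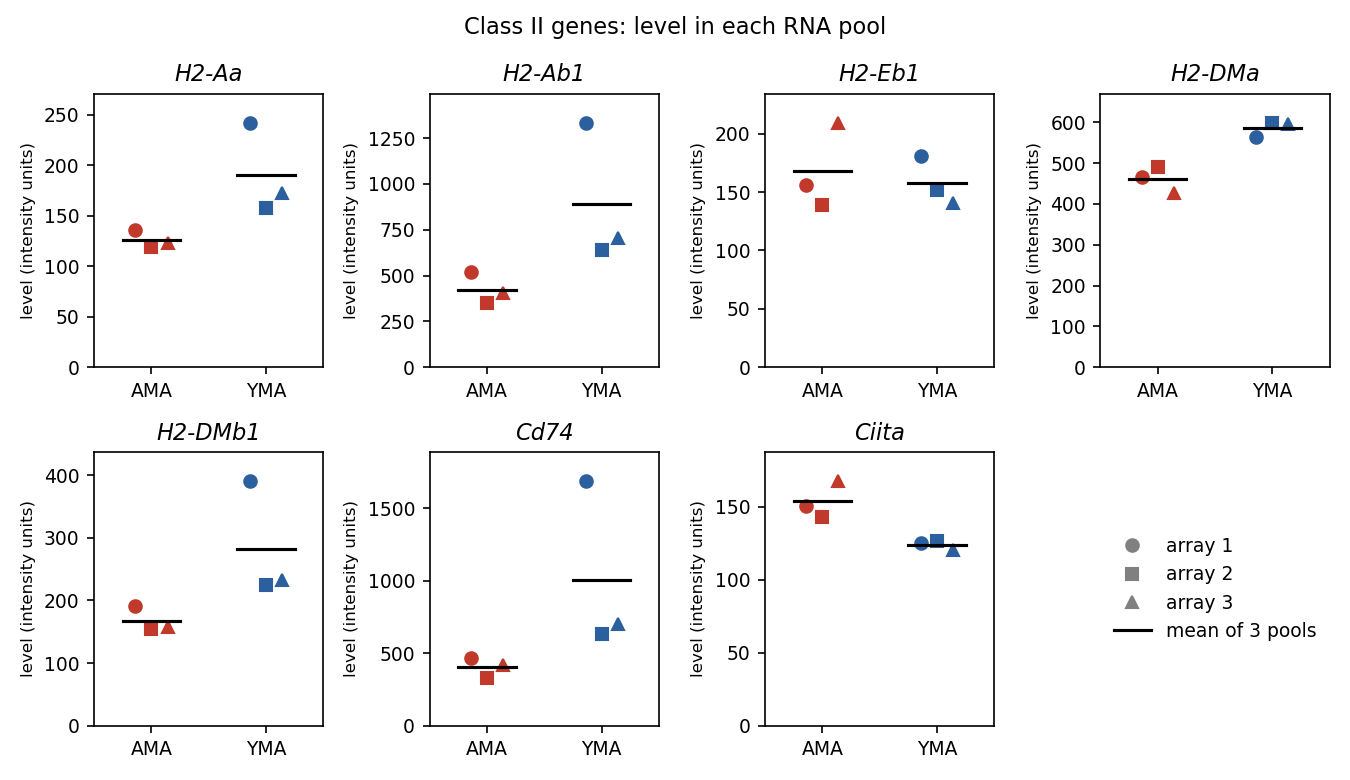
Level of each class II gene in every RNA pool, in intensity units on a linear axis that starts at 0, with AMA pools in red at the left and YMA pools in blue at the right; marker shapes give the array and black lines the mean of 3 pools. For Cd74, H2-Ab1, H2-Aa and H2-DMb1 the YMA pool of array 1 lies above all other pools, and for H2-Eb1 the groups overlap.

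All 3 AMA pools lay below all 3 YMA pools for 5 of the 7 genes and above them for 1, and of all genes 26% lay below and 16.7% above in this way. The size of the difference was uneven across arrays. The per-array median log2 ratio of the chains and Cd74 was -0.93, -0.48 and -0.52 on arrays 1, 2 and 3. YMA pool 1 was the highest YMA pool for 5 of the 7 genes, and AMA pool 1 was the highest AMA pool for 4. Leaving out array 1 kept the calls of the 5 lower genes, with log2 ratios of -0.85 for Cd74, -0.84 for H2-Ab1, -0.55 for H2-DMb1, -0.45 for H2-Aa and -0.38 for H2-DMa. Leaving out array 3 left no member called, with adjusted p from 0.0515 for H2-Ab1 to 0.0928 for Ciita among the 6 genes called with all arrays. In that fit 29 probes of all were called higher and 0 lower. Without array 2, H2-DMa lost its call, with an adjusted p of 0.0684.

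**Figure D2:**
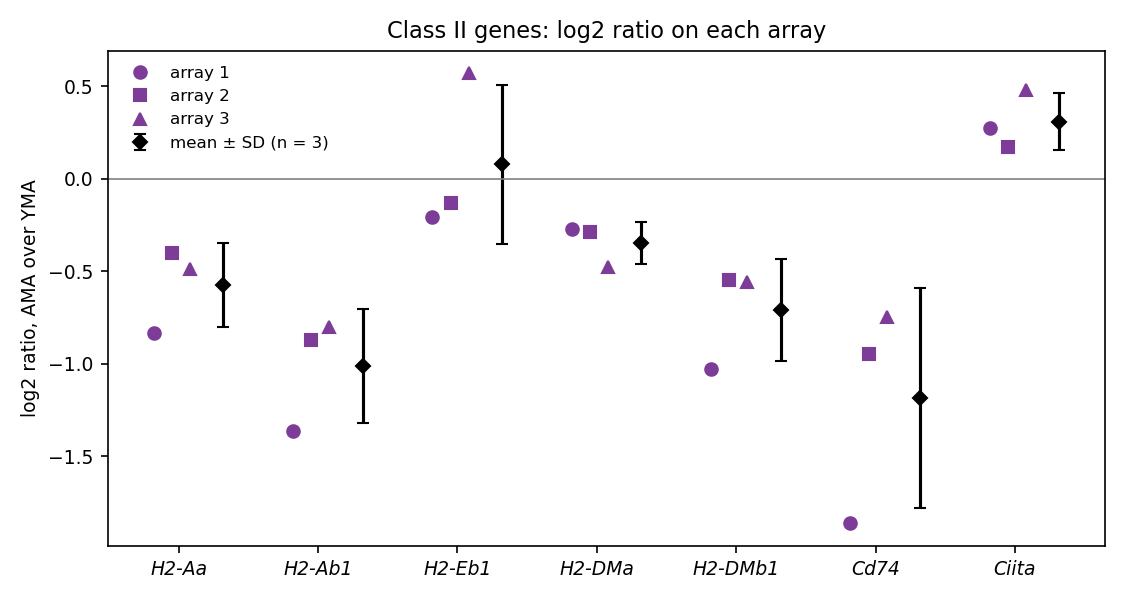
Log2 ratio of AMA over YMA for each class II gene on arrays 1, 2 and 3 (purple shapes), with the mean and SD over the 3 arrays (black diamonds). H2-Aa, H2-Ab1, H2-DMa, H2-DMb1 and Cd74 lie below 0 on every array, Ciita above 0 on every array, and H2-Eb1 on both sides.

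**Figure D3:**
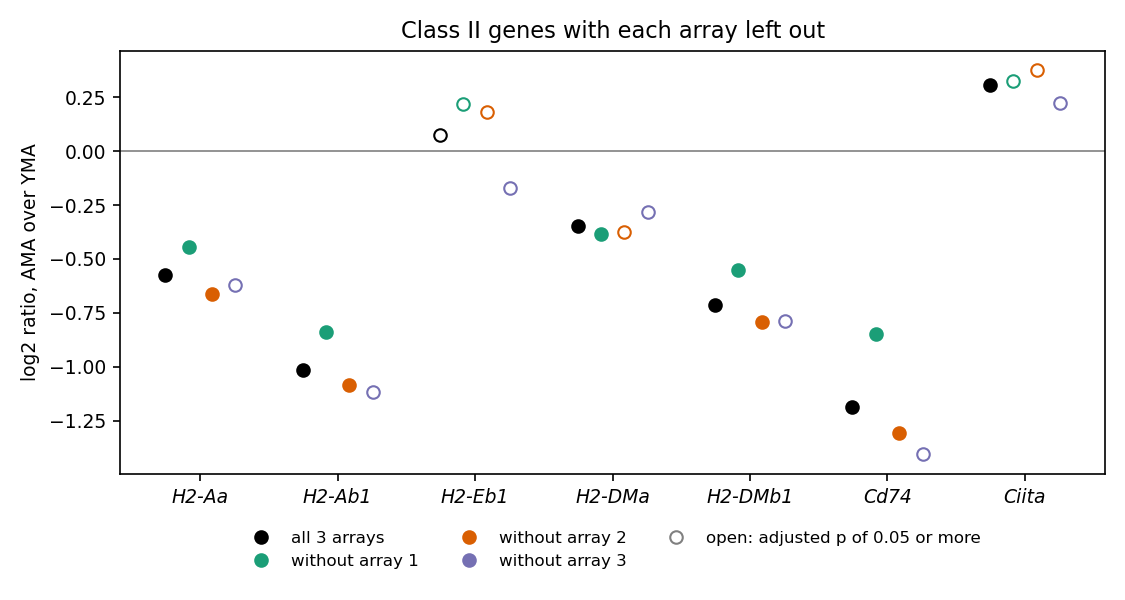
Log2 ratio of AMA over YMA for each class II gene with all 3 arrays and with each array left out in turn; filled points have an adjusted p under 0.05 and open points do not. Every point without array 3 is open, and the H2-Eb1 point without array 3 lies below 0.

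Ciita, the transactivator, had levels of 151, 143 and 168 in AMA pools, against 125, 127 and 120 in YMA pools. Every AMA pool lay above every YMA pool. The log2 ratios were 0.27, 0.17 and 0.48, with a mean of 0.31 ± 0.16 and an adjusted p of 0.0386. On each array Ciita lay above the median of the chains and Cd74, by 1.20, 0.65 and 1.00 on the log2 scale.

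The ratio of a probe moved with its share of A over the whole array, and the Ciita probe described above lay at the far end of that range. Among tested probes with at least 50% A, 83 of 145 (57.2%) were called higher in AMA and 0.690% lower, while 7.92% of all tested probes were called higher and 10.7% lower. Their median log2 ratio was 0.26, 0.24 and 0.29 on arrays 1, 2 and 3, and -0.017, -0.019 and -0.020 over all probes. Among probes with under 20% A, 4.07% were called higher and 19.5% lower. The Ciita ratio minus the median of the A-rich probes was 0.0087 on array 1, -0.064 on array 2 and 0.19 on array 3. Of the A-rich probes, 61 (42.1%) had a mean ratio at or above that of Ciita.

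With a regression of each array's ratios on the shares of A, C and G in the probe, an alternative chosen after seeing the data, the Ciita ratio was -0.034 with an adjusted p of 0.732. The call of Ciita ended in that fit. In the same fit the 5 lower genes stayed called, with ratios from -1.20 for Cd74 to -0.33 for H2-DMa. Their probes, leaving aside that of Cd74, held from 25% to 36.7% A. Ciita was measured by this probe alone, so a change of its RNA and the shift of its probe class cannot be told apart. Ciita also lost its call with each array left out (adjusted p 0.0684 to 0.0928) and with an offset of 16 (0.0503). With Agilent's processed signals it was called, at 0.79.

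**Figure D4:**
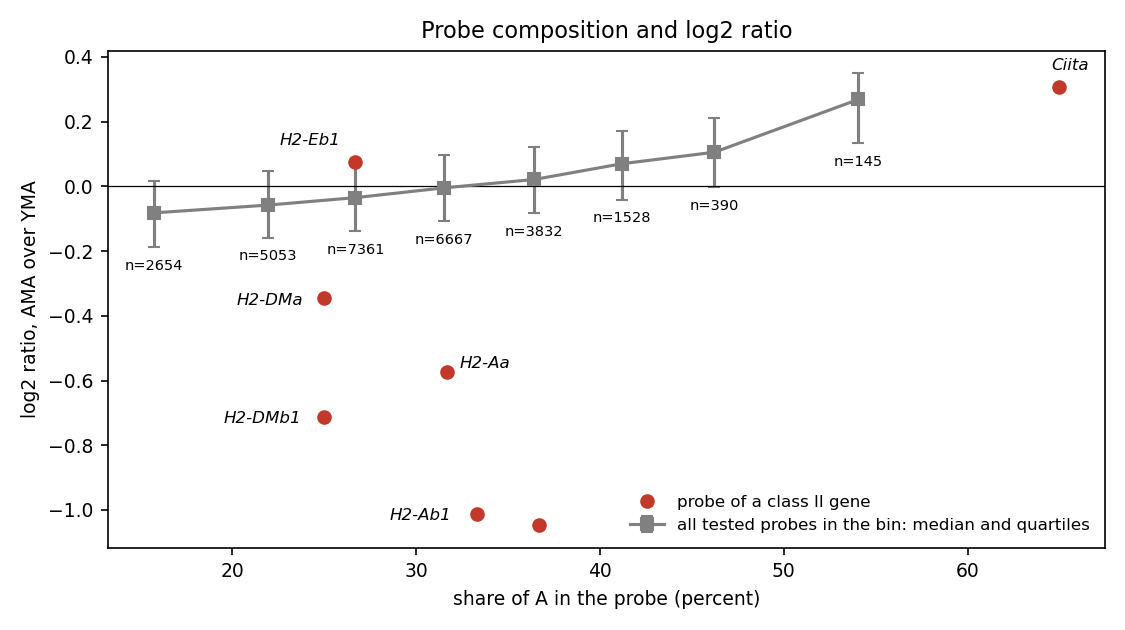
Log2 ratio of AMA over YMA against the share of A in the probe, for bins of all tested probes (grey, median with quartiles, placed at the mean share of the bin, n probes given) and for tested probes of class II genes (red; Cd74 is not drawn). The bin medians lie higher at higher shares of A, Ciita lies at 65% A near the range of the A-rich bin, and H2-Aa, H2-Ab1, H2-DMa and H2-DMb1 lie below the quartiles of bins with like shares.

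All the chains lie in the class II region of chromosome 17. Between the outermost member probes (chr17:34274300-34453134, mm9, 178.8 kb) the array held 17 probes, of which 12 were tested, 7 were lower in AMA and 0 higher, against 10.7% and 7.92% of all tested probes. Of these 7, 5 were member probes counted above, with the overlapping H2-Ab1 pair among them. The region was bounded by member probes, so this count largely repeats their result. Of 5 other genes tested there, 2 were lower, Psmb9 and Psmb8. Psmb9 and Psmb8 are immunoproteasome genes of class I peptide supply. Psmb9 had a log2 ratio of -0.73 ± 0.19 (adjusted p 0.0148) and Psmb8 one of -0.53 ± 0.17 (adjusted p 0.0178). Neither peptide transporter gene was called. The Tap1 probe was not well above background in any AMA pool, all read in Cy3, the dimmer channel. Its log2 ratios were -0.32, -0.10 and -0.25, with a mean of -0.22 and an adjusted p of 0.0512. Tap1 was called lower in 5 alternatives, among them Agilent's processed signals (-0.75, adjusted p 0.0462). Under median centring its sign turned, and it was called higher (0.16, adjusted p 0.0485). Tap2 had a ratio of 0.0048 with an adjusted p of 0.954. Neither tested probe of H2-Ob, the beta chain of the DM inhibitor, passed, and no AMA pool was well above background on either. In map order, Tap1, Tap2 and H2-Ob lay between genes that were called.

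**Figure D5:**
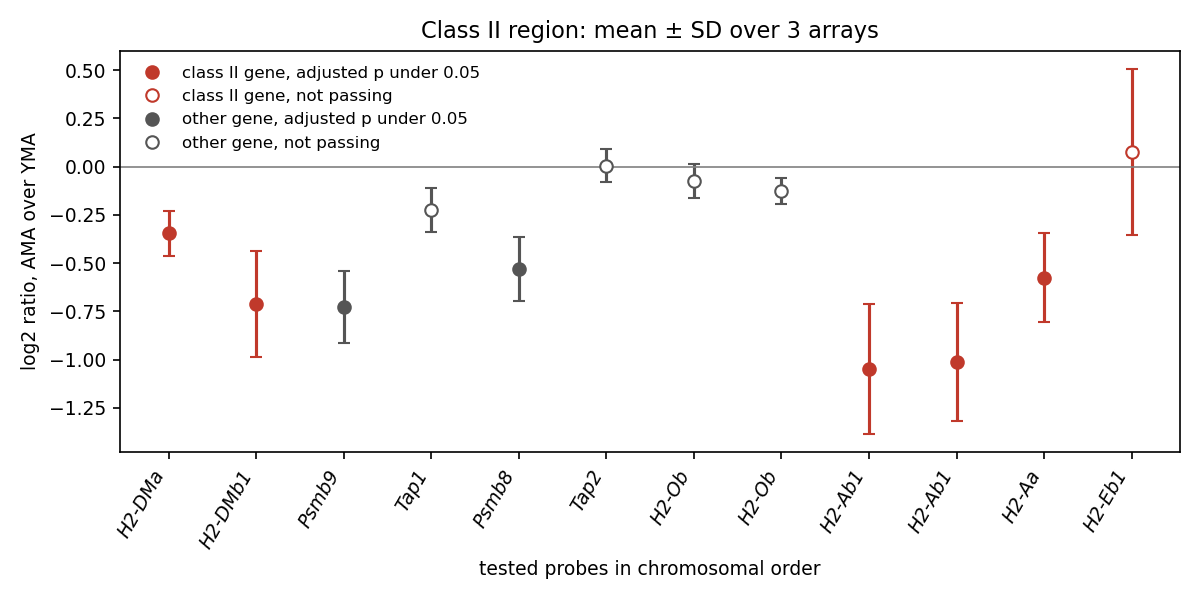
Mean log2 ratio of AMA over YMA with its SD over 3 arrays, for the 12 tested probes of the class II region in chromosomal order, evenly spaced; red marks class II genes named as members, grey other genes, and filled points an adjusted p under 0.05. The points of Tap1 and both H2-Ob probes rest on AMA signals near background; Tap2 lies at 0.0048, and H2-Eb1 has the widest SD.

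Promoters of 4 of the 7 genes were found in the RefSeq table (GRCm38.p6): H2-Aa, H2-DMa, H2-DMb1 and H2-Eb1. Stretches from 150 to 26 bases before the start are shown because H2-Eb1 and H2-DMb1 both hold S, X1 and Y matches, though not at the same positions. Their mean log2 ratios were 0.077 ± 0.43 and -0.71 ± 0.28, and the difference between them was not tested. Capitals mark exact matches, on either strand, to the Y box CCAAT, the X1 box (the longest of the patterns), the X2 box TGACG or the S box GGACC. H2-DMb1 and H2-Eb1 are on the plus strand (chr17:34153041-34153165 and chr17:34305717-34305841), and H2-Aa on the minus strand (chr17:34287849-34287973):
H2-DMb1: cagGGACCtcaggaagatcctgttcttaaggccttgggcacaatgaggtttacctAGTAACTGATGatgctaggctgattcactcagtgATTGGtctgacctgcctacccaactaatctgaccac
H2-Eb1: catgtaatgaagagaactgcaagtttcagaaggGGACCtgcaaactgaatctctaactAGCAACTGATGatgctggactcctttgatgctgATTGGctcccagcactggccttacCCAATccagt
H2-Aa: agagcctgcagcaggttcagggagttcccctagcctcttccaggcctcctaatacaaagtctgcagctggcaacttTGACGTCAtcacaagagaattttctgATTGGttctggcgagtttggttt
H2-DMb1 and H2-Eb1 both held an X1 match, a Y match downstream of it and an S match upstream. The X1 letters occur in 0.816% of 32851 promoter windows of 250 bases, longer than the stretches shown, the Y letters in 33.8%, the S letters in 39.8% and the X2 letters in 17.8%. In H2-Aa the X2 letters match on both strands of 1 overlapping stretch, and the Y letters match closer to the start. In H2-DMa the S and Y letters matched only further upstream, where they overlapped. A match is a description of letters and shows no binding.

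The wider pathway was called no more often than genes in general, whose shares are given above. Of 38 other listed genes of class II presentation, 33 were tested, 3 were lower in AMA, 1 was higher and 29 did not pass, with a median log2 ratio of -0.075. None of the 7 listed genes of endosomal proteases, a reductase and a protease inhibitor passed. Among them were Ctss, which trims Cd74, at -0.093 ± 0.13, and Ifi30, a thiol reductase, at -0.11 ± 0.054. Of 7 RFX, NF-Y and CREB genes only Rfxank, a subunit of the RFX complex, was lower, at -0.24 ± 0.038 (adjusted p 0.0262). Of 9 tested genes of interferon-gamma signalling, Irf1 and Irf8, transcription factors of that response, were lower at -0.31 ± 0.13 and -0.22 ± 0.074 (adjusted p 0.0296 and 0.0393). Irf1 lost its call in the composition regression (adjusted p 0.0547), with Agilent's processed signals (0.0609) and with channels as separate samples (0.0611). The Irf1 call was also lost without array 2 (0.0982) or array 3 (0.0802). Irf8 lost its call with Agilent's processed signals, with offset 16, with the deposited table and with each array left out. Rfxank lost its call without array 2 or array 3. Ifng itself was not above background. Among costimulatory and contact genes Cd80 was higher, at 0.26 ± 0.11 (adjusted p 0.0369). Under median centring Cd80 was at -0.19, which was 0.14 above the median of all probes, itself shifted to -0.33 by that scaling. The call of Cd80 as higher was lost with Agilent's processed signals, with offset 16 and with each array left out. The other class II chains H2-Oa and H2-Ob did not pass and no AMA pool was well above background for either, while H2-Eb2, H2-Ea-ps and H2-DMb2 were not above background.

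The genes whose 3 array ratios lay nearest to the median of the chains and Cd74, by Euclidean distance over 3 arrays, were Irgm2, Tgtp2, Oasl2, Psmb9 and Cldn5, at distances from 0.128 to 0.237. Irgm2 and Tgtp2 are interferon-inducible GTPases, Oasl2 is an interferon-induced gene of the oligoadenylate synthetase family, and Cldn5 is a tight junction protein of endothelium. Irgm2 had ratios of -0.87, -0.36 and -0.52 on arrays 1, 2 and 3. With only 3 points for each gene this likeness is a description.

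Markers of the cell types that could carry class II RNA were set beside these values. Of 16 microglial markers 1 was lower, Cx3cr1, at -0.46 ± 0.076, and 1 was higher, C1qa, at 0.31 ± 0.052, and under median centring C1qa was at -0.25, which was 0.078 above the shifted median of all probes. The median log2 ratio of the microglial list was 0.094, -0.081 and -0.027 on arrays 1, 2 and 3. Of 9 markers of border-associated macrophages 7 were tested and 0 passed, with medians of -0.20, -0.13 and 0.10. Of 10 dendritic cell markers 7 were tested and 1 was lower, Clec10a, at -0.29 ± 0.056. Clec10a was well above background in 2 of 3 AMA pools, and it lost its call with Agilent's processed signals (adjusted p 0.148), without array 2 (0.117) or array 3 (0.0647) and under median centring (-0.030, adjusted p 0.578). The median of the dendritic list was -0.0057, -0.13 and -0.17. The dendritic markers Xcr1, Clec9a and Ccr7 were not above background.

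Lymphocyte markers were mostly dim. Of 8 B cell markers 3 were tested and 0 passed, and Ms4a1, Cd79b, Blk and Fcrla were not above background. Of 8 T cell markers 3 were tested and 0 passed, and Cd3d, Cd3g, Cd2, Cd8a and Themis were not above background. Monocyte and neutrophil markers had calls in the other direction from the class II chains. Of 6 tested, 4 were higher in AMA, where 7.34% of all tested genes were called higher. They were led by Plac8 (0.28 ± 0.018), S100a9 (1.19 ± 0.50) and Chil3 (1.74 ± 0.76). Each of these named genes lost its call with Agilent's processed signals and without array 3. Plac8 also lost its call without array 2, and Chil3 with a variance trend and robust settings. Of the 6 tested, 2 did not pass: Ly6g, negative on every array at -0.37 ± 0.39, and Mpo at 0.030 ± 0.12. The median of the 6 was 0.38, 0.27 and 0.49 on arrays 1, 2 and 3.

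Markers of tissue next to the hippocampus were also read, where 12.2% of all tested genes were called lower in AMA. Of 11 choroid plexus markers 2 were lower, Sostdc1 and Kcnj13, and 9 did not pass. Both calls were lost with Agilent's processed signals, with offset 16, with a variance trend and robust settings, and without array 1 or array 3. Kcnj13 also lost its call with channels as separate samples and in the composition regression. All the choroid plexus markers but Kcne2 were negative on every array. The lowest mean was that of Ttr, at -2.08 ± 1.70 (adjusted p 0.0645). Among the 9 that did not pass, Kcne2 had a positive mean, at 0.997 ± 1.94, and was well above background in 1 of 3 YMA pools. Of 9 tested leptomeningeal markers 5 were lower, led by Ogn, Fmod and Aldh1a2. The median ratio of the choroid plexus markers was -0.90, -2.13 and -0.40 on arrays 1, 2 and 3. That of the leptomeningeal markers was -0.43, -0.59 and -0.26. Among 8 endothelial markers Cldn5 and Slco1a4 were lower and Flt1 was higher, with Flt1 at 0.089 above the shifted median of all probes under median centring. Of 7 astrocyte markers Gfap was higher, and of 10 hippocampal neuron markers Neurod6 and Rbfox3 were lower and Neurod2 higher, and relative to the shifted median under median centring Gfap was at 0.18 and Neurod2 turned to -0.16. The part of any of these cell types in the class II values was not tested.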

How the data were processed

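Hippocampal RNA pools were compared on 3 Agilent two-colour arrays. Per the file headers, Feature Extraction 10.10.1.1 wrote mean spot signals and local backgrounds as raw intensity values, processed signals as intensity values corrected for background and dye, and a log10 ratio of Cy5 over Cy3. Flags of another (other) kind for background, saturation and outlying spots are 0 or 1, per the file headers. In the deposited table the values are log2 ratios, with Cy3 on top, and it names no steps. They were matched within 5e-10 by normexp with offset 50 and loess applied to median signals.

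Values were computed from mean signals with limma 3.58.1 in R 4.3.3 (tables read with jsonlite 2.0.0): normexp with offset 50, loess with span 0.3, spots of a probe averaged, and control and outlying spots at weight 0. Probes well above background on all 3 arrays in Cy3 or in Cy5 were kept (27630). Log2 ratios were tested by limma's moderated test (lmFit, eBayes), two-sided with 2 residual and 3.42 prior degrees of freedom, with Benjamini-Hochberg adjustment over all kept probes. The ratio pairs the pools of 1 array, since those share a hybridisation. A gene was read from its brightest kept probe. All arrays were on 1 slide in 1 scan, so no batch could be fitted. Median Cy3 signals over background were 58.0 to 62.3 units and Cy5 signals 153 to 165, with 0 saturated spots, and the number of arrays limits the precision. Gene names are those of the files, updated through the accession for 28025 probes found in RefSeq (GRCm38.p6).

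The members and gene lists were chosen with earlier results of these data known. Named genes are all members, the called genes of each list (at most 4 of a pathway list and 3 of a marker list by smallest p), up to 2 others of a pathway list, the 5 genes nearest to the chains, and the genes of the class II region. The brightest uncalled gene of each marker list, also in that rule, is not printed. Ly6g, Mpo, Kcne2 and the genes said to be not above background were added once values were known. The alternatives changed the signals (Agilent's processed ones, uncorrected ones, offset 16 or the deposited table), the scaling (median centring, or scaling between arrays), the filter (none or stricter) and the fit (trend and robust variance, weights for arrays, separate channels). Others were a threshold of 0.01, a gene's mean over probes, and leaving out each array. The composition regression was chosen after seeing the data. On simulated spots for this comparison (27630 probes), 43 of 50 probes with a true log2 ratio of -1 were called and 24 of 50 with -0.5. A few items of the probe and pathway lists are not reported here.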

Additional observations from a re-analysis of the deposited data

How the results depend on the processing

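The 5 lower genes kept their sign under every alternative run. They numbered 3 with Agilent's processed signals, where Cd74 (adjusted p 0.0546) and H2-DMa (0.0725) lost their calls. They also numbered 3 with a variance trend and robust settings, where H2-Ab1 (0.0531) and Cd74 (0.0941) did. With array 1, 2 or 3 left out, 0 to 5 were called, and 0 at a threshold of 0.01. Ciita was called higher in 0 fits with an array left out, and in 0 with offset 16, a threshold of 0.01 or the composition regression, where its ratio was -0.034. H2-Eb1 had a negative ratio with Agilent's processed signals (-0.020), no background correction (-0.054), array weights (-0.054) and without array 3, where leaving out an array gave -0.17 to 0.22.

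Over all probes, 2189 were higher and 2946 lower. These counts were 1169 and 1449 with Agilent's processed signals, 5747 and 7543 with array weights, 1 and 0 at a threshold of 0.01, and 29 to 1459 and 0 to 1906 with an array left out. Median centring gave 5996 and 17006 and moved the median of all probes to -0.33. Relative to that shift, the members ran from -1.30 for Cd74 and -0.20 for H2-Aa to 0.42 for H2-Eb1 and 0.76 for Ciita. Under it the signs of Cd80 (-0.19), C1qa (-0.25), Flt1 (-0.24), Gfap (-0.15), Neurod2 (-0.49), Tap1 (0.16) and Tap2 (-0.56) turned. Relative to the shift, Cd80 (0.14), C1qa (0.078), Flt1 (0.089) and Gfap (0.18) kept their sign, while Neurod2 (-0.16), Tap1 (0.49) and Tap2 (-0.23) did not. Median centring takes the place of the loess step, and subtracting 1 median from all probes makes no allowance for the brightness of a probe. Tap2 also turned with Agilent's processed signals (-0.016), no background correction (-0.011), the deposited table (-0.014) and array weights (-0.0053), and ran from -0.042 to 0.043 with an array left out. The cause was not tested.

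Without the replicate block, with channels as separate samples, 2358 probes were higher and 3205 lower, and 5 members were lower and 1 higher. The less bright H2-Ab1 probe then had an adjusted p of 0.0530. Cy3 was the dimmer channel. An offset of 16 in place of 50 gave -0.77 for H2-Aa, -0.87 for H2-DMb1 and 0.41 for Ciita.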
